A study of Mus musculus with 2 samples.

Results

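Nuclear genes of mitochondrial fusion, fission and genome maintenance were followed on whole-genome mouse arrays: the fusion genes Mfn1, Mfn2 and Opa1, the Opa1-cutting protease gene Oma1, the fission genes Dnm1l, Fis1 and Mff, and the mitochondrial genome genes Tfam, Polg and Tfb2m. They were chosen by symbol, as every non-control probe whose gene name on the array was one of these, which gave 10 of 25505 genes with a symbol and 17 of 39429 probes. Gastrocnemius, the large calf muscle, came from male C57BL/6 wild-type mice aged 9 weeks. In the cast group the hindlimb had been immobilised with plaster for 11 days, and the control group was of the same strain, sex and age. The labels give N = 6 mice a group and describe pooling, so each group is 1 pool on 1 single-colour array, and no value has a replicate, an SE or a p-value.

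Mitochondria join and divide throughout the life of a muscle fibre. Mitofusins on the outer membrane and Opa1 on the inner membrane fuse them, while the dynamin-related GTPase encoded by Dnm1l is recruited to the surface by adaptor proteins and constricts them. The small circular genome inside is packaged, copied and transcribed entirely by proteins that the nucleus encodes.

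All 17 probes were well above background on both arrays, and none of their spots was saturated or flagged, so every one of the 10 genes was measured. Each value below is a scaled signal, the background-subtracted spot intensity divided by the 75th percentile of its array, and each difference is the log2 ratio of cast over control. The error given is a spot-level SD for that ratio, from 259 probes printed several times on each array. Over 4 classes of brightness it ran from 0.16 for the dimmest to 0.08 for the brightest, and it does not cover the spread between mice or between hybridisations. The error model of the scanner software, carried into the log2 ratio, was larger, at 0.20 for most of these probes. Where a gene had several probes, the brightest stands for it.

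With this scaling, 7 of the 10 genes were lower on the cast array and 3 were higher, beside 52.9% and 47.1% of the 15150 measured genes. The median of the 10 was -0.28, against -0.03 over all measured genes. At least 1.5-fold lower were 2 genes, Oma1 and Polg, where 8.2% of all measured genes were. None was 1.5-fold higher, where 7.07% of all genes were, and none differed 2-fold in either direction, where 2.09% were lower and 2.24% higher. The 3 roles did not lie together: the 4 genes placed with fusion had a median of -0.49, the 3 fission genes one of 0.17 and the 3 genome genes one of -0.30. Those directions are relative to the 75th percentile: the cast array was brighter as a whole, and with no scaling the median of all genes was 0.31, with the spike-in controls 0.32. Mfn2, Tfam and Tfb2m were above 0 under both of these scalings, and Mfn2 under median scaling too.

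**Figure D1:**
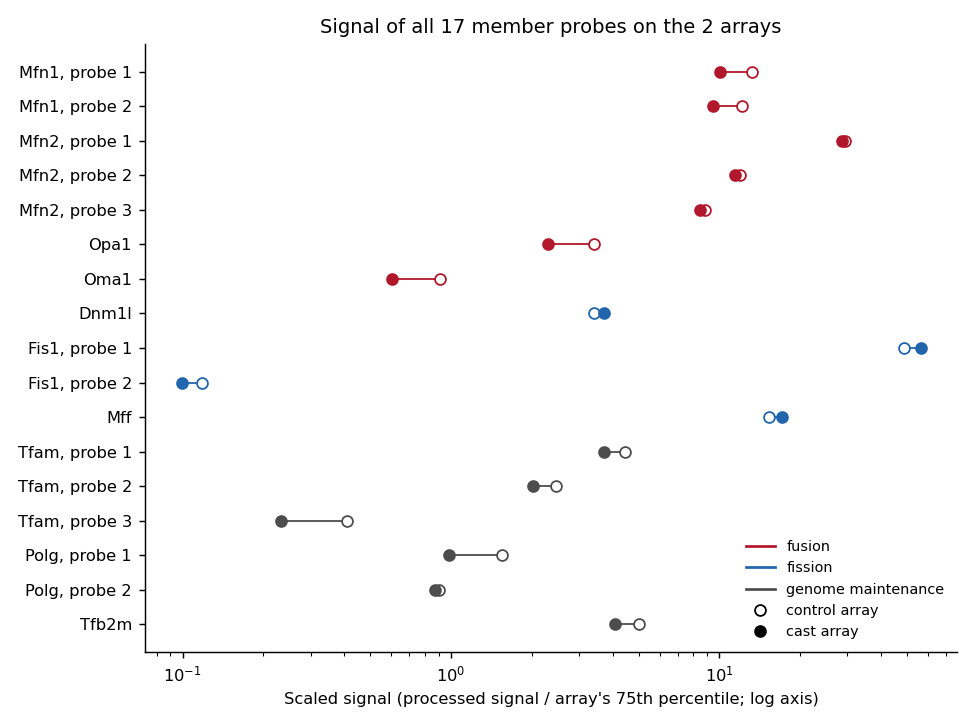
Scaled signal of each of the 17 probes on a log axis, with the control array as an open circle, the cast array as a filled one and 1 spot behind each. The fusion genes in red and the genome genes in grey lie to the left of their control values, while Dnm1l, Mff and the brighter Fis1 probe in blue lie to the right; the dimmer Fis1 probe lies to the left.

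Mfn1, 1 of the pair of mitofusins that tether outer membranes, had scaled signals of 13.3 for control and 10.1 for cast. Its log2 ratio was -0.40 (spot-level SD 0.08), or 1.32-fold lower. The probe lies at chr3:32476420-32476479 of mm9, plus strand, and another whose match begins 205 bases upstream read 12.1 and 9.45, a log2 ratio of -0.36. Both probes of Mfn1 thus moved alike, and 16.2% of measured genes had a lower log2 ratio than the brighter one.

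Mfn2, the other mitofusin, which also tethers mitochondria to the endoplasmic reticulum, read 29.4 and 28.8 by its brightest probe (chr4:147247704-147247757, minus strand), a log2 ratio of -0.03. Its other probes read 12.0 and 11.5, and 8.82 and 8.51, with log2 ratios of -0.06 and -0.05. All 3 differences were smaller than the spot-level SD of 0.08. With median scaling the brightest probe gave 0.05 and with quantile scaling -0.12, so no direction can be given for Mfn2. Mfn1 was lower relative to Mfn2 under each scaling tried.

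Opa1, the inner membrane fusion GTPase that also holds cristae closed, read 3.42 for control and 2.29 for cast (chr16:29651875-29651934, plus strand). Its log2 ratio was -0.57 (spot-level SD 0.09), or 1.49-fold lower, just short of the 1.5-fold threshold. Oma1, the stress-activated protease that cuts Opa1 and thereby limits fusion, lay just past that threshold: it read 0.907 and 0.601, a log2 ratio of -0.59 (spot-level SD 0.10), or 1.51-fold lower. The 60-base probe of Oma1 is placed over 3210 bases at chr4:102994426-102997635, plus strand. The substrate and its protease therefore differed by about the same amount, with 8.55% and 7.95% of all measured genes lower than them. Both stayed below 0 with no scaling, at -0.24 for Opa1 and -0.26 for Oma1.

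The 3 fission genes went the other way. Dnm1l, which encodes the constricting GTPase often called Drp1, read 3.40 for control and 3.71 for cast (chr16:16312331-16312390, minus strand). That is a log2 ratio of 0.13 (spot-level SD 0.08), or 1.09-fold higher. Mff, an outer membrane receptor that recruits it, read 15.3 and 17.1 (chr1:82748715-82748774, plus strand), a log2 ratio of 0.17, or 1.12-fold higher. Fis1, a small outer membrane protein of the fission machinery, read 48.9 and 56.2 by its brighter probe, a log2 ratio of 0.20, or 1.15-fold higher. Each difference was larger than the spot-level SD but no larger than the software's error of 0.20, and 58.6% to 73.7% of all measured genes lay at least as far from 0. With no scaling the 3 read 0.46, 0.50 and 0.54, against the all-gene median of 0.31.

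Fis1 had a second probe, and the first 30 bases of both are shown because they gave opposite signs with the percentile scaling. The letters are those of the array's design, with none marked.
Fis1 brighter probe: agcctcttagcccctgcacctgtcgtttaa
Fis1 dimmer probe: aaagactccggttgatagaccgctacggag
The brighter probe matches chr5:137442023-137442082 and the dimmer one chr5:137429355-137429414, both on the plus strand and 12668 bases apart. The dimmer probe read 0.118 for control and 0.0991 for cast, a log2 ratio of -0.25 (spot-level SD 0.16, software error 0.26). That difference was no larger than the software error. With no scaling the dimmer probe read 0.087 and with spike-in scaling 0.098, so both probes were then above 0. With the percentile scaling the mean of both was -0.02, so the direction of Fis1 there rests on its brighter probe. In the array's annotation that probe also matches a RefSeq transcript that is not listed for the dimmer one. Whether the transcripts differed in direction was not tested.

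**Figure D2:**
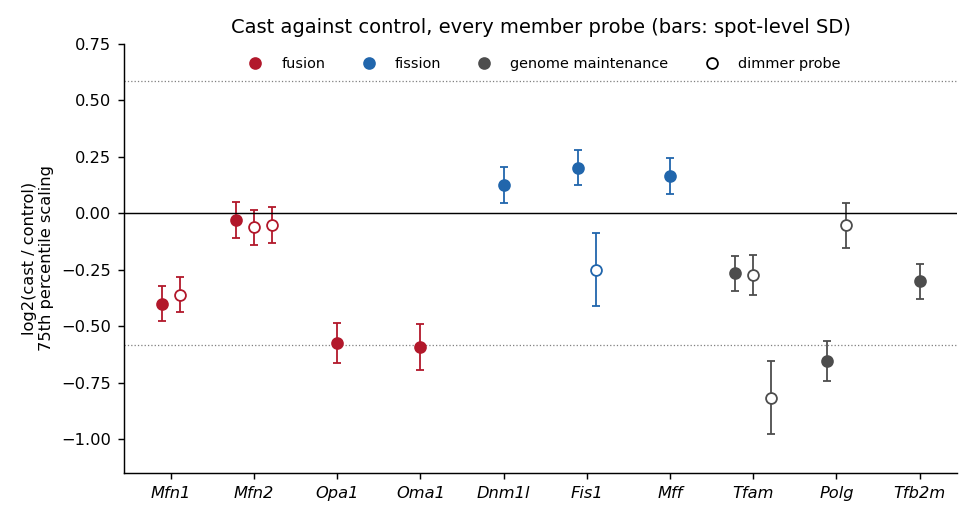
Log2 ratio of cast over control for every probe under the 75th percentile scaling, with the brightest probe of each gene filled, dimmer probes open, bars for 1 spot-level SD and dotted lines at 1.5-fold. Oma1 at -0.59, Polg at -0.65 and the dimmest Tfam probe at -0.82 lie past the lower line, and the 3 fission genes lie between 0.13 and 0.20.

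The contrast between the roles does not depend on the scale, since any common scaling cancels when one log2 ratio is taken from another. Each of the 3 fission genes was set against each of the 4 genes placed with fusion, a comparison chosen after the values had been seen, so it is a description. In 12 of 12 pairs the fission gene had the higher log2 ratio. The difference ran from 0.16 for Dnm1l over Mfn2, which is 1.41 times its spot-level SD, to 0.80 for Fis1 over Oma1, with a median of 0.65. As a ratio of ratios this is 1.11 to 1.74, and 7 of the 12 pairs were past 1.5-fold. The software's error was 0.20 for each of the 2 log2 ratios in most pairs, and a difference carries the error of both. The 3 pairs with Mfn2, at 0.16, 0.20 and 0.23, were about the size of that error for a single ratio. All 12 stayed above 0 with quantile scaling, with loess scaling and with normexp background correction, which are not common scalings and do not cancel.

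Which genes enter the contrast matters more. The pairs share genes and are not independent, and Oma1 restrains fusion instead of carrying it out. Without Oma1, 9 of 9 pairs were above 0, with a median of 0.57. Without Mfn2 the lowest of the 9 remaining pairs was 0.53. With the mean of all probes of a gene the lowest of 12 fell to 0.02. With the dimmer Fis1 probe, 11 of 12 were above 0, and Fis1 over Mfn2 was -0.22.

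**Figure D3:**
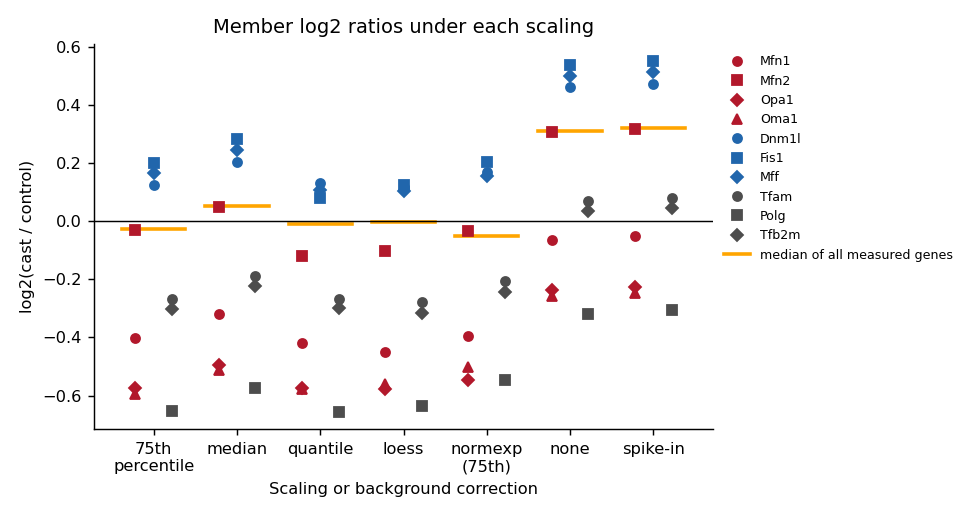
Log2 ratio of each of the 10 genes (fusion red, fission blue, genome maintenance grey) under 7 ways of scaling or background correction, with the median of all measured genes as an orange bar. The blue points lie above the red ones in every column, while Mfn2, Tfam and Tfb2m cross 0 on the right, where the arrays are unscaled or scaled on the spike-in controls.

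Tfam, which packages mitochondrial DNA and starts its transcription, had 3 probes that disagreed in size. The brightest read 4.46 for control and 3.71 for cast, a log2 ratio of -0.27 (spot-level SD 0.08), or 1.20-fold lower. The next read 2.45 and 2.03, also -0.27. The dimmest read 0.408 and 0.232, a log2 ratio of -0.82 (spot-level SD 0.16), or 1.76-fold lower. All 3 had the same direction, but the dimmest was apart from the others by more than their spot-level SDs.

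Polg, the catalytic subunit of the mitochondrial DNA polymerase, showed a similar split. Its brighter probe read 1.55 and 0.987, a log2 ratio of -0.65 (spot-level SD 0.09), or 1.57-fold lower. Its dimmer probe read 0.902 and 0.869, a log2 ratio of -0.05 (spot-level SD 0.10). The call of 1.5-fold for Polg therefore rests on 1 of 2 probes, and their mean was -0.35.

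The first 30 bases of these 5 probes are given because the difference for Tfam and Polg depends on which is read; no letters are marked.
Tfam brightest probe: ctttgagccttgacagaagatgatgctgag
Tfam middle probe: ctctgagcattaagatggaagacggagttg
Tfam dimmest probe: cctctgaatttaaagctggtgttagcatac
Polg brighter probe: gtgcaggttcctaaactcaggctttcagat
Polg dimmer probe: agtgaccatggactgtaaaactccttctaa
On the minus strand of mm9, the Tfam probes lie at chr10:70691103-70691162, chr10:70691260-70691319 and chr10:70688866-70688925, in that order. The dimmest is the one nearest the 3′ end, with the others 2237 and 2394 bases upstream of it. The Polg probes lie at chr7:86594739-86594798 and chr7:86595379-86595438, also on the minus strand, with the brighter one nearer the 3′ end by 640 bases. Which exons or untranslated regions these stretches belong to was not analysed here. In both genes the probe nearest the 3′ end had the lower log2 ratio. Over 2213 genes with measured probes within 5000 bases, the 3′-most minus the 5′-most probe had a median of -0.0013 and was below 0 in 50.4%. It was -0.5 or lower in 8.18% of them, as it was for Tfam and for Polg.

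Tfb2m, the factor that opens the promoter for the mitochondrial RNA polymerase, read 5.02 and 4.07 by its single probe (chr1:181458247-181458306, minus strand). Its log2 ratio was -0.30 (spot-level SD 0.08), or 1.23-fold lower. With no scaling Tfam read 0.07 and Tfb2m 0.04, while Polg stayed below 0 at -0.32. By their brightest probes all 3 genome genes were thus lower than the median gene under every scaling tried. In the absence of scaling only Polg was below 0 by that probe. Its dimmer probe then read 0.28, and the dimmest Tfam probe read -0.48. With normexp background correction the dimmer Polg probe, at -0.02, was above the all-gene median of -0.05.

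The other genes of each process came from lists of known function, and at most 4 of a list are named, those with the largest absolute log2 ratio. With no scaling, 12103 of all 15150 measured genes were above 0, 3590 at least 1.5-fold higher and 404 at least 1.5-fold lower. With spike-in scaling these counts were 12229, 3704 and 391. The counts of each list under either scaling are to be read beside them. Among 14 fission adaptors and regulators, 6 were below 0 and 8 above, with a median of 0.03. Yet of the 7 lists this one held the largest differences. Mtfp1, an inner membrane protein that promotes fission, read 31.1 for control and 12.2 for cast, a log2 ratio of -1.35 (spot-level SD 0.08), or 2.56-fold lower. Mtfr1, a regulator of mitochondrial fission, read 2.74 and 1.14, a log2 ratio of -1.26, and its other probe gave -1.12. With no scaling they read -1.02 and -0.92. Gdap1, an outer membrane protein linked to fission, was -0.60. Spire1, an actin nucleator, was 0.70, but its probe was dim and gave 0.28 with normexp background correction. These 3 lower genes and 1 higher gene were the only ones of the 14 past 1.5-fold; with no scaling 2 were lower and 2 higher. The other fission factors thus lay on both sides of the small positive values of Dnm1l, Mff and Fis1.

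Among 23 fusion partners, inner membrane proteases and cristae organisers, 15 were below 0 and 8 above, with a median of -0.12. None was past 1.5-fold in either direction. With no scaling 7 were below 0 and 16 above, with spike-in scaling 6 and 17, and under either 3 were at least 1.5-fold higher. The furthest from 0 were Chchd10, a protein of the intermembrane space, at -0.48, the prohibitin Phb1 at -0.45, and the cristae junction subunit Micos10 at -0.44. A second probe of Micos10 gave -0.06. Yme1l1, the other protease that cuts Opa1, was -0.43 (spot-level SD 0.16).

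Among 12 genes of mitochondrial transport and removal, 6 were below 0 and 6 above, with a median of 0.11, and 3 were at least 1.5-fold lower. With no scaling or spike-in scaling, 4 were below 0 and 8 above, none was 1.5-fold lower and 6 were at least 1.5-fold higher. Most measured genes were above 0 under both, and 3590 and 3704 of 15150 were at least 1.5-fold higher. Fundc1, an outer membrane receptor of mitophagy, read 4.32 and 2.58, a log2 ratio of -0.74. Bcl2l13, another such receptor, read 7.36 and 4.41, also -0.74. The trafficking adaptors Trak1 and Trak2 were -0.59 and -0.38, with second probes at -0.28 and -0.12.

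**Figure D4:**
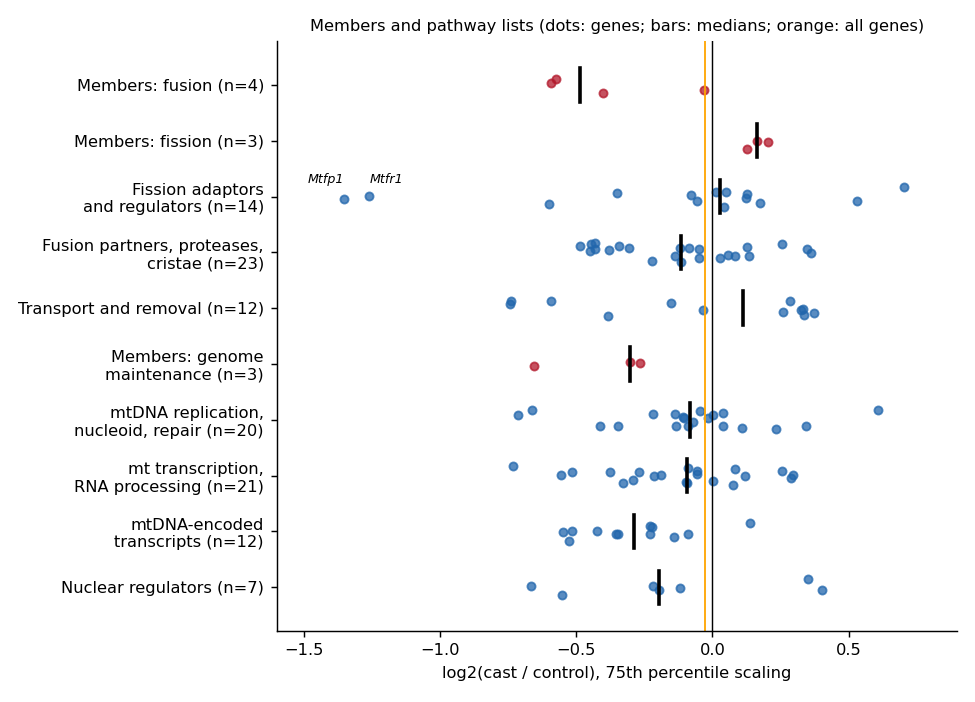
Log2 ratio of cast over control of every measured gene in the 3 role groups (red) and in the 7 lists of related genes (blue), with black bars for medians and an orange line for the median of all measured genes. The medians lie apart, at 0.17 for the fission genes and -0.49 for the genes placed with fusion, which include Oma1. Of the latter, Mfn2 at -0.03 lies nearest the fission genes. The list of fission adaptors holds the lowest values, Mtfp1 at -1.35 and Mtfr1 at -1.26.

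Of 23 genes of mitochondrial DNA replication, nucleoid structure, nucleotide supply and repair, 20 were measured, with 13 below 0, 7 above and a median of -0.08. Endog, a mitochondrial nuclease, read 9.14 and 5.78, a log2 ratio of -0.66. Mgme1, an exonuclease of mitochondrial DNA replication, was -0.72 from a dim probe (spot-level SD 0.16), and Exog, another nuclease, was -0.41. Tk2, the mitochondrial thymidine kinase, was 0.61. These made 2 genes at least 1.5-fold lower and 1 higher. With normexp background correction Mgme1 was -0.46 and Tk2 0.47, which left 1 lower and 0 higher. With no scaling or spike-in scaling 0 were lower and 2 higher. Dna2, Primpol and Rrm2b were not well above background on both arrays.

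Of 22 genes of mitochondrial transcription and RNA processing, 21 were measured, with 14 below 0, 7 above and a median of -0.09. Only Mterf2, a member of the mitochondrial transcription termination factor family, was past 1.5-fold, at -0.73, where it read 2.65 and 1.59. Lrpprc, which stabilises mitochondrial messengers, read 18.8 and 12.7, a log2 ratio of -0.56. Fastkd3 and Fastkd1, RNA-binding proteins of mitochondria, were -0.52 and -0.38, and their second probes gave -0.50 and -0.16. Under spike-in and under no scaling, 4 of the 21 were below 0, 0 were 1.5-fold lower and 3 were higher. Fastkd2 was not above background on either array.

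The transcripts of the mitochondrial genome itself were read by probes for 12 of 15 listed genes. Below 0 were 11 of the 12, and their median was -0.29, with none past 1.5-fold. With quantile and with loess scaling 3 were at least 1.5-fold lower: mt-Nd1 at -0.68 and -0.62, mt-Nd4l at -0.63 and -0.61, and mt-Nd5 at -0.60 and -0.59. Subunits of complex I were lowest, with mt-Nd1 at -0.55, mt-Nd4l at -0.52, mt-Nd5 at -0.51 and mt-Nd2 at -0.42. mt-Nd4 and mt-Nd3 were both -0.23 and mt-Nd6 was -0.14. Of the cytochrome oxidase subunits, mt-Co3 was -0.35, mt-Co1 -0.22 and mt-Co2 -0.09. The ATP synthase subunit mt-Atp8 was -0.35, and mt-Cytb, the cytochrome b gene, was the single one above 0, at 0.14. With quantile scaling mt-Co2 was above 0 as well. With no scaling 12103 of all 15150 measured genes were above 0, and their median was 0.31. The median of the 12 transcripts was then 0.05, with 6 on either side of 0. All but mt-Nd6 were in the brightest of 10 equal parts of the measured genes, whose median was 0.05, and the 200 brightest genes had a median of -0.08.

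The nuclear factors that control Tfam and Tfb2m were all measured. Esrra, the estrogen-related receptor alpha, read 24.2 for control and 15.2 for cast, a log2 ratio of -0.67 (spot-level SD 0.08), or 1.59-fold lower. Ppargc1a, the coactivator PGC-1alpha, read 4.03 and 2.75, a log2 ratio of -0.55, and its other probe gave -0.34. Ppargc1b was -0.22, and the GABP subunits Gabpa and Gabpb1 were -0.20 and -0.12. Nrf1 was 0.40, with other probes between 0.04 and 0.68, and Pprc1 was 0.35 from a dim probe. The 7 had a median of -0.20, with 5 below 0. Only Esrra was past 1.5-fold. With no scaling 5 of the 7 were above 0, with 0 lower and 2 higher past 1.5-fold. Of all 15150 measured genes, 12103 were then above 0 and 3590 at least 1.5-fold higher.

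Promoters were searched for the motifs of such factors, on both strands, in the RefSeq windows of GRCm38.p6 that run from 250 bases before to 50 after each gene's start. All 10 genes matched, with 15 windows. The GABPA or ETS motif CCGGAAGT was in 5 of the 15 windows, from 4 genes, Mfn1, Fis1, Tfam and Polg, and in 3.89% of all 32851 windows. The NRF1 motif, searched as GCGCATGCGC with any base at the sixth place, was in 2 of the 15, from Opa1 and Oma1, and in 4.6% of all. The SP1 motif GGGGCGGGG was in 3 of the 15, from Oma1 and Fis1, and in 11.4% of all. The ERR motif TCAAGGTCA, in 0.423% of all, and the CREB motif TGACGTCA, in 1.79%, were in none of the 15. A match is a description of the letters, not evidence of binding.

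The 80 bases before the start are shown for 5 of these genes, with the motif in capitals: the 4 with the GABPA or ETS motif because their brightest probes differ in direction, and Opa1 as an example of the NRF1 motif.
Mfn1 upstream: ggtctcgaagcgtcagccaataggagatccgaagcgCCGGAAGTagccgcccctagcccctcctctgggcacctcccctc
Tfam upstream: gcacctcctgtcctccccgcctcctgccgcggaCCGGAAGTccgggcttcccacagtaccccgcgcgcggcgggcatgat
Polg upstream: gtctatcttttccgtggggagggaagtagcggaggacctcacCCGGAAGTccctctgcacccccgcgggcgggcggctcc
Fis1 upstream: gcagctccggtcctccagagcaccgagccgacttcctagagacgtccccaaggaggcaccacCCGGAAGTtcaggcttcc
Opa1 upstream: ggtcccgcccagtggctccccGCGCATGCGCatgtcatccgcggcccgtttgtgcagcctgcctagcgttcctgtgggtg
In GRCm38.p6 these are chr3:32529402-32529481 (plus strand), chr10:71238045-71238124 (minus), chr7:79466274-79466353 (minus), chr5:136953195-136953274 (plus) and chr16:29579254-29579333 (plus). The GABPA or ETS motif began 44, 47, 38 and 18 bases before the start of Mfn1, Tfam, Polg and Fis1. Another Fis1 window, not shown, held it at -20, which is after the start. Which Fis1 window goes with which probe was not tested. Of these 4 genes the first 3 were lower on the cast array by their brightest probes, at -0.40, -0.27 and -0.65. Fis1 was 0.20 by its brighter probe and -0.25 by its dimmer one. With the percentile scaling, whether genes with the motif shared 1 direction therefore depends on the Fis1 probe. With no scaling Tfam was above 0 by its brightest probe and Fis1 by both of its probes. Mfn1 and Polg were then below 0 by their brightest probes.

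The tissue label was checked by muscle fibre markers: all 10 were measured, and their summed scaled signal was 4095 for control and 3407 for cast. Below 0 were 7 of them, while Des at 0.73, Myh1 at 0.15 and Ryr1 at 0.11 were above. The sums for other cells differed as well, except for Schwann cells, where they were nearly equal. Each sum also takes in any listed marker that was not measured. The summed signal of satellite cell markers was 3.96 and 8.66 (4 of 6 measured), where Cdh15 was 1.35 and Vcam1 -0.72, and Calcr was above background on the control array alone. Cdh15 alone made up 3.16 of the first sum and 8.07 of the second, while Pax7 was 0.08 and Chodl 0.07. The higher sum on the cast array thus rests on 1 gene. The summed signal of fibroblast markers was 155 and 110 (5 of 6, with Col1a1 at -1.76). That of macrophage markers was 20.3 and 16.5 (5 of 6), where Itgam, the brightest, was -0.53, Mrc1 0.50 and C1qa 0.29, and the median log2 ratio was 0.01. For endothelium it was 13.2 and 11.7 (6 of 6), for adipocytes 96.0 and 84.7 (5 of 6) and for Schwann cells 7.87 and 7.92 (6 of 6). Of the endothelial markers 4 were below 0, among them Emcn at -0.67 and Kdr at -0.56, while Cldn5 was 0.80 and Pecam1 0.06. Myf5, Tcf21, Cd68 and Lep, a marker each of 4 of these types, were not above background on either array. The part of these markers in the differences above was not tested. In whole muscle, fewer cells of a type and less RNA per cell cannot be told apart.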

How the data were processed

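Expression was measured in 1 control and 1 cast pool, each on 1 array. The submitters' processing notes name Agilent Feature Extraction 9.5 for the scans. The intensity used is the software's processed signal, background-subtracted and detrended within each array but unscaled across arrays, per the file headers. A deposited table holds the same intensities divided by each array's 75th percentile, times 100, with 54.9% of values rounded to whole numbers, and served as an alternative.

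Control spots and flagged spots (2 control, 9 cast) were left out, replicate spots averaged on the log2 scale, and each array's 75th percentile (385 control, 486 cast) subtracted from the log2 intensities made from the deposited files. A gene was measured when a probe was well above background (60.6% and 56.8% of probes) on both arrays. Names came from the array, or from the accession for 26055 probes. Alternatives were scaling by median, quantile, loess or spike-ins, or none, normexp (limma 3.58.1, R 4.3.3, offset 50), the probe rule, the detection filter and the deposited table. The calculations were checked on simulated data. The 10 genes and all lists were chosen with earlier results of these data known. Named are all 10 genes with every probe, the up to 4 genes farthest from 0 in a list, and every measured transcript of mitochondrial DNA and regulator of Tfam and Tfb2m. One marker list is not reported here.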

Additional observations from a re-analysis of the deposited data

How the results depend on the processing

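No paired analysis was possible because each group has 1 array. The number of arrays limits the precision, and dim probes have the largest spot-level error. Of 56 single-gene or single-probe log2 ratios, 38 kept their sign under every alternative. These 38 include every gene named for lying farthest from 0 in its list. Such genes are the least likely to change sign, so the count was partly set by that choice. The count of the 10 genes at least 1.5-fold lower, 2 as reported, was 1 with quantile scaling, loess scaling, the deposited table and the mean of probes. Of all 15150 measured genes, 1243 were that much lower as reported, and 1177, 1137, 1189 and 1217 with these alternatives. Among brighter genes alone it was 1, beside 529 of 7575 genes. It was 0 with median scaling, normexp, spike-in and no scaling, beside 949, 680, 391 and 404 of 15150 genes. Opa1, Oma1 and Polg all lie near that threshold. With spike-in and with no scaling, 2921 and 3047 of all 15150 genes were below 0. Under these 2 scalings 4 of the 10 were below 0, with medians of 0.064 and 0.053. The list medians under these 2 were 0.38 and 0.37 (fission adaptors), 0.23 and 0.22 (fusion partners), 0.46 and 0.45 (transport and removal), 0.27 and 0.26 (replication and nucleoid), 0.26 and 0.24 (transcription), 0.059 and 0.048 (transcripts of mitochondrial DNA) and 0.15 and 0.14 (regulators), all shifted by the brighter cast array, whose all-gene median was 0.32 and 0.31. Among brighter genes alone, the regulators had a median of -0.55, from fewer genes.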

Other observations

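Probes of 1 gene often differed on these arrays, which bears on how closely a single-probe value such as that of Opa1, Oma1, Dnm1l, Mff or Tfb2m can be read. Over 3144 genes with at least 2 measured probes, the log2 ratios of a gene's probes spanned a median of 0.18, and 15.9% of genes spanned 0.5 or more. Polg spanned 0.60, Tfam 0.55 and Fis1 0.45, and 11.0%, 13.3% and 18.5% of genes spanned as much. Mfn1 spanned 0.04 and Mfn2 0.03, and 86.5% and 89.1% of genes spanned as much. The probes of the mitofusins therefore agreed more closely than those of most genes, and those of Polg, Tfam and Fis1 less closely.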
